A study of Mus musculus with 15 samples.

Results

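The 9 genes described here are the B cell genes Cd79a, Cd79b and Ms4a1, the T cell genes Cd3e, Cd3g, Cd3d and Cd8a, and the lymphocyte genes Ikzf3 and Gpr171, out of 38924 genes in the deposited tables. They were taken by gene symbol, and each symbol matched 1 row. Ikzf3 and Gpr171 were added because they were much higher in CD45hi than in CD45lo cells of these same libraries, so their difference between the cell types is a description and carries no test. The values come from poly(A)-selected RNA-seq of brain cells of wild-type C57BL/6J (B6) male mice aged 12 months that were fed a chow diet (CD) or, from young adulthood, a western diet (WD). Live CD45+ cells that carried the myeloid protein CD11b and no CD3e were parted by FACS into CD45hi cells, taken in this field as enriched for infiltrating blood cells, and CD45lo cells, taken as resident microglia. There were 4 CD45hi and 4 CD45lo libraries from CD-fed mice, and 3 CD45hi and 4 CD45lo libraries from WD-fed mice. The study describes its deposited counts as those of single animals, and the labels themselves name no mouse, so a p-value measures the spread between these libraries. The mice were perfused, the brain was taken without the olfactory bulb and cerebellum, and the gate left out cells with CD3e on their surface.

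A B cell recognizes antigen through membrane immunoglobulin, which signals through a pair of chains encoded by Cd79a and Cd79b, and mature B cells also carry CD20, encoded by Ms4a1. A T cell recognizes antigen through the T cell receptor, which reaches the surface and signals with the CD3 gamma, delta and epsilon chains of Cd3g, Cd3d and Cd3e, and CD8 alpha (Cd8a) is a co-receptor of cytotoxic T cells. Ikzf3 encodes Aiolos, a zinc finger transcription factor of the Ikaros family known for its role in B cells and other lymphocytes. Gpr171 encodes a G protein-coupled receptor known from T cells. In the healthy brain tissue itself lymphocytes are few, and most are found in the meninges, the choroid plexus and the blood vessels.

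Expected counts, which are the authors' estimates of the reads of each gene, totalled 11951412 to 17912272 per library (median 15100700). They were normalized with TMM and scaled to a common library total (cpm), and levels of different genes are set side by side only in TPM, which also divides by transcript length. A library with 0 counts of a gene allows up to 3 counts, which is 0.156 to 0.282 cpm in these libraries and covers counting error only. The 9 genes together took 0.00335% of all counts in CD45hi and 0.00104% in CD45lo libraries of CD-fed mice, and 0.00666% and 0.000775% in those of WD-fed mice. In a principal component analysis of the 14967 genes that passed the filter (at least 1 cpm in at least 2 libraries), CD45hi library 4 of CD-fed mice (-93 on the second component) and CD45hi library 1 of WD-fed mice (135) stood apart from the other 13 libraries, which lay between -21.5 and 4.48. Their values are named below wherever they set a result. In bulk RNA, fewer cells of a type and less RNA per cell cannot be told apart.

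The label of T and B lymphocyte markers was checked against the values, and most of the genes went against it in some way. Of the 9 genes, 5 passed the filter (Cd79a, Cd79b, Ms4a1, Ikzf3 and Gpr171), and none of the 4 T cell genes did. Cd79b was measured at about the same level in both cell types. Cd79a, Ms4a1, Ikzf3 and Gpr171 were higher in CD45hi cells, but each of them varied widely between the CD45hi libraries. The plot of the members by library shows these patterns.

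**Figure D1:**
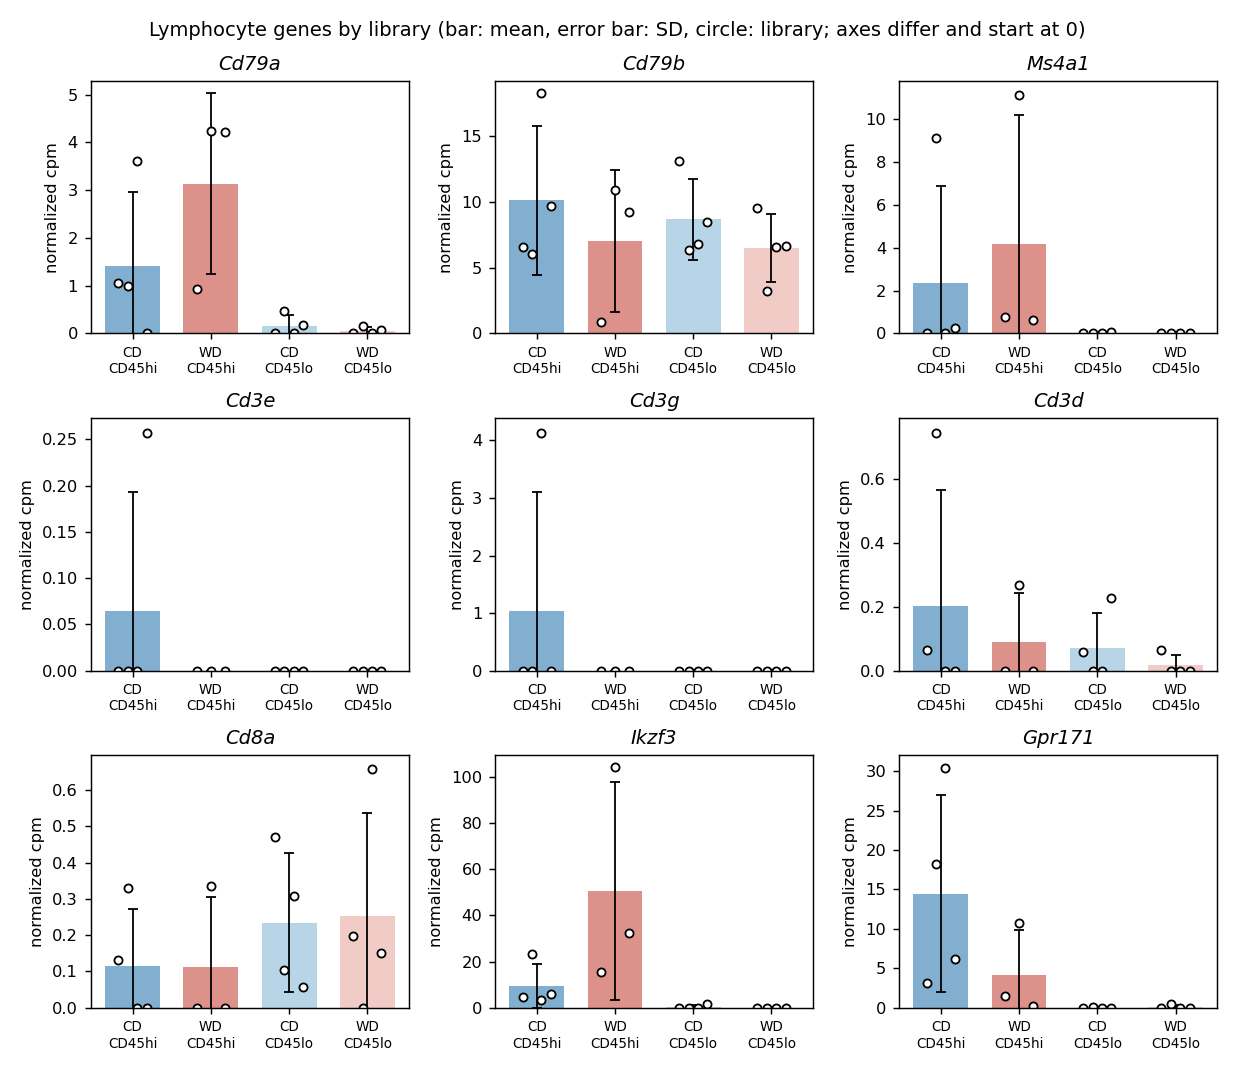
Normalized cpm of the 9 genes in each of the 15 libraries, by diet and CD45 level. Bars are group means, error bars are SD (n = 4, and 3 for CD45hi of WD-fed mice), circles are libraries, and each panel has its own axis. Cd79b lies between 3.26 and 13.1 cpm in all 8 CD45lo libraries, whereas Cd3e and Cd3g each have counts in 1 library, and Ikzf3 and Gpr171 are near 0 in CD45lo cells.

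Cd79a (ENSMUSG00000003379, chromosome 7 of mm10 from 24897381 to 24902197, plus strand) encodes the immunoglobulin alpha chain of the receptor. In CD45hi cells of CD-fed mice its 4 libraries had 16, 12, 41 and 0 counts, or 1.05, 0.994, 3.61 and 0 cpm. In CD45lo cells of CD-fed mice they had 0, 9, 0 and 3 counts. The library at 0 was CD45hi library 4, which stood apart, and it made the CD45hi and CD45lo values overlap. The mean was 1.41 ± 1.54 cpm in CD45hi and 0.159 ± 0.22 cpm in CD45lo cells (SD, n = 4 each), a ratio of 8.87. Without CD45hi library 4 the CD45hi mean was 1.88 ± 1.49 cpm (SD, n = 3), and without CD45hi library 3 the ratio was 4.28.

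On the WD, Cd79a had 10, 63 and 55 counts in the CD45hi libraries, or 0.941, 4.23 and 4.22 cpm. The 4 CD45lo libraries had 0, 2, 0 and 1 counts, all at or under the floor of 3 counts, and no CD45lo library reached a CD45hi library. Against that floor, taken per library, Cd79a was at least 13.8-fold higher in CD45hi cells (3.13 ± 1.89 cpm, SD, n = 3).

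Cd79b (ENSMUSG00000040592, chromosome 11 of mm10 from 106311341 to 106314762, minus strand) encodes the immunoglobulin beta chain, the partner of Cd79a in the same receptor. Its 4 CD45hi libraries of CD-fed mice had 6.55, 6.04, 18.3 and 9.72 cpm, and the 4 CD45lo libraries had 13.1, 6.33, 6.82 and 8.51 cpm. On the WD the CD45hi libraries had 0.847, 10.9 and 9.28 cpm, and the CD45lo libraries had 9.57, 3.26, 6.59 and 6.67 cpm. The lowest value of all, 0.847 cpm from 9 counts, was in CD45hi library 1 of WD-fed mice, which stood apart. Ordered by their means, the groups were CD45hi on the CD (10.2 ± 5.67 cpm), CD45lo on the CD (8.7 ± 3.09), CD45hi on the WD (7 ± 5.39) and CD45lo on the WD (6.52 ± 2.58; SD, n = 4, 4, 3 and 4), and no neighbours in this order differed beyond their spread. Between CD45hi and CD45lo cells the log2 fold change was 0.22 on the CD (SE 0.669) and 0.1 on the WD (SE 0.723). Leaving out the libraries that stood apart gave 0.25 and 0.63 (SE 0.531 and 0.593), and leaving out single libraries gave -0.22 to 0.49 on the CD and -0.36 to 0.63 on the WD, so no direction held.

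The chains of the receptor pair were measured in unequal amounts. In TPM, Cd79b was 1.13 to 7.44 times as high as Cd79a in the 6 CD45hi libraries with Cd79a above 0, and in the other, library 4 of CD-fed mice, Cd79b was at 11.6 TPM with Cd79a listed at 0. In the 4 CD45lo libraries with any Cd79a it was 16.8 to 114 times as high, where Cd79a rested on 1 to 9 counts. In the other 4 CD45lo libraries Cd79a was listed at 0 while Cd79b was at 11.7 to 23.7 TPM.

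Ms4a1 (ENSMUSG00000024673, chromosome 19 of mm10 from 11249675 to 11266241, minus strand) encodes CD20. An antisense gene, 4930526L06Rik, overlaps it without overlap of exons. Its counts in CD45hi cells were 0, 110, 0 and 4 in CD-fed mice and 8, 166 and 8 in WD-fed mice. In CD45lo cells it had 1 count in 1 library and 0 in the other 7. Library 2 of each diet held most of the Ms4a1 counts, at 9.11 cpm on the CD and 11.1 cpm on the WD, while 2 CD45hi libraries of CD-fed mice had none. Against the floor of 3 counts per library, the CD45hi mean was at least 12.7-fold higher in CD-fed mice, where libraries overlapped at 0, and at least 18.3-fold higher in WD-fed mice, where they did not overlap. Both bounds rest on library 2: without it the CD mean, 0.0857 cpm, was under the floor and left no bound, and on the WD the bound was 3.01-fold.

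The other B cell genes of a fixed list of receptor, signalling and transcription factor genes were split in the same way, as the plot of receptor genes shows. Of 22 genes, 21 had a row and 14 passed the filter. In CD-fed mice 1 of the 14, Spib, was called higher in CD45hi cells, where 3.98% of all tested genes were called and 3.39% were called higher (edgeR glmTreat, 1.5-fold, false discovery rate (FDR) under 0.05). In WD-fed mice Spib alone of the 14 was called higher, where 5.18% of all tested genes were called and 4.01% were called higher. None was called lower on either diet, where 0.588% and 1.17% of all tested genes were. The median log2 fold change of the 14 genes was 0.76 in CD-fed and 0.69 in WD-fed mice, beside 0.04 and 0 for all 14967 genes. Some of the 14, such as Spib and Pou2af1, passed the filter only through CD45hi libraries. The median was therefore partly set by the filter and shows no shift of B cell genes by itself.

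Spib encodes an Ets family factor known in B cells and in plasmacytoid dendritic cells. It rose in CD45hi cells at least 57.2-fold on the CD (10.5 ± 15.3 against 0.0866 ± 0.06 cpm, SD, n = 4 for both, edgeR glmTreat FDR = 0.0187) and at least 39.2-fold on the WD (8.91 ± 8.26 cpm, SD, n = 3, against 0.0655 ± 0.0542, SD, n = 4, FDR = 0.0188). On the CD the CD45hi libraries had 5.5, 3.39, 0 and 33.3 cpm, and without library 4, which stood apart, the bound was 16.1-fold, while on the WD it was 21-fold without library 2. CD45hi library 3 of CD-fed mice had 0 counts and overlapped the CD45lo libraries. Spib passed the filter only through CD45hi libraries (5 at 1 cpm or more, against at most 0.176 cpm in CD45lo cells). Its direction was thus set by the filter, and its call is a description. Without CD45hi library 4 of CD-fed mice, or any 1 CD45lo library of the diet compared, the call was lost (FDR 0.0514 to 0.081 on the CD and 0.0508 to 0.0663 on the WD), as it was under the edgeR 4 form of the test (0.0737 and 0.133).

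The list held genes of several patterns. In cpm, Ighm, Blnk, Cd22, Bank1 and Bach2 were high in CD45lo cells too, where Cd79a and Ms4a1 were at or near 0. Ighm, the constant region of immunoglobulin M, had means of 363 and 341 cpm in CD45hi and CD45lo cells of CD-fed mice and 296 and 319 cpm in those on the WD (log2 fold changes of 0.09, SE 0.199, and -0.11, SE 0.216). Blnk, the adaptor that links the receptor to its signalling enzymes, had means between 175 and 211 cpm in all 4 groups. Cd22, Bank1 and Bach2 passed the filter and were not called on either diet. Cd72, a co-receptor of B cells, had higher means in CD45hi cells, at 30.1 and 6.38 cpm on the CD and 40.2 and 8.67 cpm on the WD, and did not pass (edgeR glmTreat FDR = 0.0857 and 0.0911). Igkc, the constant region of the kappa light chain, was at 18.7 and 0.377 cpm on the CD and 7.07 and 3.21 cpm on the WD (FDR = 0.0773 and 0.831). Pou2af1, a co-activator of B cells, had 591 counts in CD45hi libraries of CD-fed mice and 45 in those of WD-fed mice against 0 in CD45lo cells, and did not pass either (FDR = 0.0775 and 0.197). These non-calls depended on the fit. On the CD, 5 of 24 alternative fits called Igkc (DESeq2 FDR = 0.00387, edgeR 4 form 0.0147) and 5 of 24 called Pou2af1. Cd72 was called by the edgeR 4 form on both diets (FDR = 0.0382 and 0.0348). Blk was at 4 counts in 1 CD45hi library and 0 in the others, and Vpreb3 was at 0 in all 15.

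**Figure D2:**
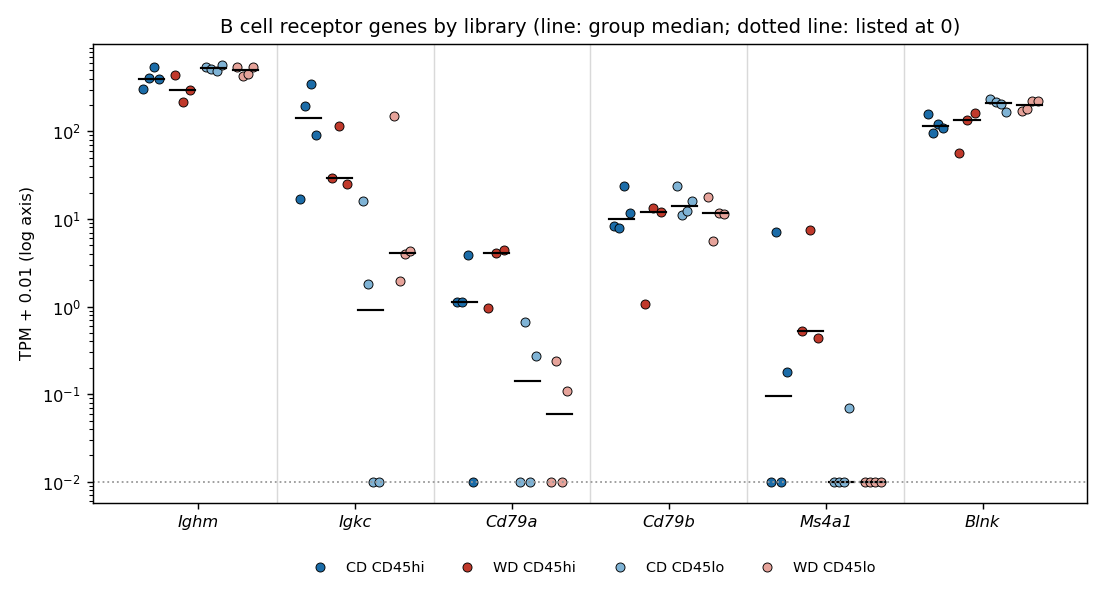
TPM + 0.01 (log axis) of Ighm, Igkc, Cd79a, Cd79b, Ms4a1 and Blnk in each library, with a line at each group median and a dotted line where a gene is listed at 0. Ighm, Cd79b and Blnk are above 0 in all 15 libraries, while Ms4a1 is at 0 in 7 of the 8 CD45lo libraries.

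The CD3 genes lie close together on chromosome 9 of mm10. Cd3g (ENSMUSG00000002033, 44969572 to 44980431, minus strand) and Cd3d (ENSMUSG00000032094, 44981786 to 44987339, plus strand) are read away from each other from starts 1355 bases apart, and Cd3e (ENSMUSG00000032093, 44998740 to 45009627, minus strand) ends 11401 bases beyond Cd3d. The 250 bases before the starts of Cd3g and Cd3d are printed here as those of close neighbours. Both genes were under the filter, and a link between these bases and their counts was not tested. Capitals mark the E box CAGGTG and the Ets core AGGAAG on either strand, so that CACCTG and CTTCCT are the same motifs read from the other strand. Both are RefSeq sequences of GRCm38.p6, 5′ to 3′ on the strand of the gene, Cd3g at chr9:44980432-44980681 and Cd3d at chr9:44981536-44981785.
Cd3g: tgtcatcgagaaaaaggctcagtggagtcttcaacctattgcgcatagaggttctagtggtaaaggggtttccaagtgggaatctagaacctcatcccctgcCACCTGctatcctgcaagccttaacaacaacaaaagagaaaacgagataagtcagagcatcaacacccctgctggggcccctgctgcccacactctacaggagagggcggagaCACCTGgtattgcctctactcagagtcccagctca
Cd3d: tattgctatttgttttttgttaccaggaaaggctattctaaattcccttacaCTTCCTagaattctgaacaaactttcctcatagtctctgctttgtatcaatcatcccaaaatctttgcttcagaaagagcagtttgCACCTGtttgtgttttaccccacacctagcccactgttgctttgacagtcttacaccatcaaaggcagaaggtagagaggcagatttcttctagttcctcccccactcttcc

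The Cd3g window holds the E box at 148 and 35 bases before the start, and the Cd3d window holds it at 112 bases. The Ets core stands 198 bases before the start of Cd3d and not in the Cd3g window. Of all 32851 promoter windows of this length in the table, 17.2% hold the E box and 29.5% the Ets core, so a match is a common event and no more than a description. The windows of 5 of the 9 genes were in the table (Cd79a, Cd3e, Cd3g, Cd3d and Cd8a), and none of these 5 holds the octamer ATGCAAAT, which 1.6% of all windows hold.

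Cd3e, the chain that the sort was gated against, had 4 counts (0.257 cpm) in CD45hi library 4 of CD-fed mice and 0 counts in the other 14 libraries. An antisense gene, Gm48719, overlaps its exons and has no row here. Cd3g had 47 counts (4.13 cpm, 6.68 TPM) in CD45hi library 3 of CD-fed mice and 0 in the other 14. In that library Cd3e and Cd3d were both listed at 0. No library had counts of more than 1 of the 3 CD3 chains.

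Cd3d had 1, 9, 0 and 0 counts in the CD45hi libraries of CD-fed mice and 0, 4 and 0 in those of WD-fed mice. In CD45lo cells its highest count was 4, in library 4 of CD-fed mice. Its highest level, 0.745 cpm, was in CD45hi library 2 of CD-fed mice, and no group stood clear of another.

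Cd8a (ENSMUSG00000053977, chromosome 6 of mm10 from 71373427 to 71379173, plus strand) was the only T cell member with counts in most CD45lo libraries. It had 8, 2, 5 and 1 counts in CD45lo cells of CD-fed mice and 3, 0, 12 and 2 in those of WD-fed mice. In CD45hi cells it had 2, 3.97, 0 and 0 counts on the CD and 0, 5 and 0 on the WD. The highest level, 0.659 cpm, was in CD45lo library 3 of WD-fed mice, and the groups overlapped on both diets. Its neighbour Cd8b1, the CD8 beta chain, 35933 bases away, had fractional counts, which RSEM gives where reads are shared with other features, at means of 0.609 and 0.682 cpm in CD45hi and CD45lo cells of CD-fed mice and 1.23 and 0.737 cpm in those of WD-fed mice, and it was not called (edgeR glmTreat FDR = 1 and 0.853).

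The other T cell genes of the fixed lists were mostly low as well. Of 31 receptor, signalling, surface and transcription factor genes, 30 had a row and 13 passed the filter. Cd4 was called higher in CD45hi cells on both diets, where 3.98% (CD) and 5.18% (WD) of all tested genes were called. None of the other tested genes of these lists was called in either direction. Among them Il7r, Icos, Foxp3 and Cd247 had the higher mean in CD45lo cells on both diets. Il7r was at 20.8 and 30.1 cpm in CD45hi and CD45lo cells on the CD and at 13.3 and 30 cpm on the WD. Cd4 reached 1 cpm in 7 libraries, and among CD45lo cells only in library 3 of WD-fed mice (1.65 cpm). Its direction was therefore largely set by the filter. The median log2 fold change of the 13 genes was 0.39 in CD-fed and 1.1 in WD-fed mice, beside 0.04 and 0 for all tested genes. Some of the 13, such as Cd2, passed the filter only through CD45hi libraries, so this median was partly set by the filter. Trac and Trbc2, the constant regions of the receptor chains, the kinase Zap70, the adaptors Trat1 and Sh2d1a, the surface protein Cd6 and the factor Gata3 were at no more than 3 counts in each of the 15 libraries. Trbc1 had 13 counts and Cd2, an adhesion protein of T and NK cells, 65 counts in CD45hi library 3 of CD-fed mice, the library that held the 47 counts of Cd3g. Lck, the kinase that starts CD3 signalling, was at 0 in that library, had 34 counts in CD45hi library 1 of CD-fed mice and had 6 to 32 counts in each of the 8 CD45lo libraries.

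Cd4 is the co-receptor of helper T cells and is also known from some dendritic cells. It had 10.9, 11.8, 79.4 and 42.3 cpm in CD45hi cells of CD-fed mice, all above the highest CD45lo value of 0.983 cpm. The log2 fold change was 5.56 on the CD (SE 1.19, edgeR glmTreat FDR = 0.011) and 5.28 on the WD (SE 1.21, FDR = 0.016). On the WD library 1, which stood apart, had 0.47 cpm and fell within the CD45lo range, and leaving out CD45hi library 2 or CD45lo library 1, 2 or 4 ended the call (FDR 0.0519 to 0.0619), as did fitting only the groups compared (0.0913). Cd28, the co-stimulatory receptor of T cells, was at 7.55 and 0.928 cpm in CD45hi and CD45lo cells of CD-fed mice and did not pass (edgeR glmTreat FDR = 0.393), nor did it on the WD (6.85 and 0.122 cpm, FDR = 0.0707). On the WD 4 of 23 alternative fits called Cd28, among them DESeq2 (FDR = 0.0142).

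**Figure D3:**
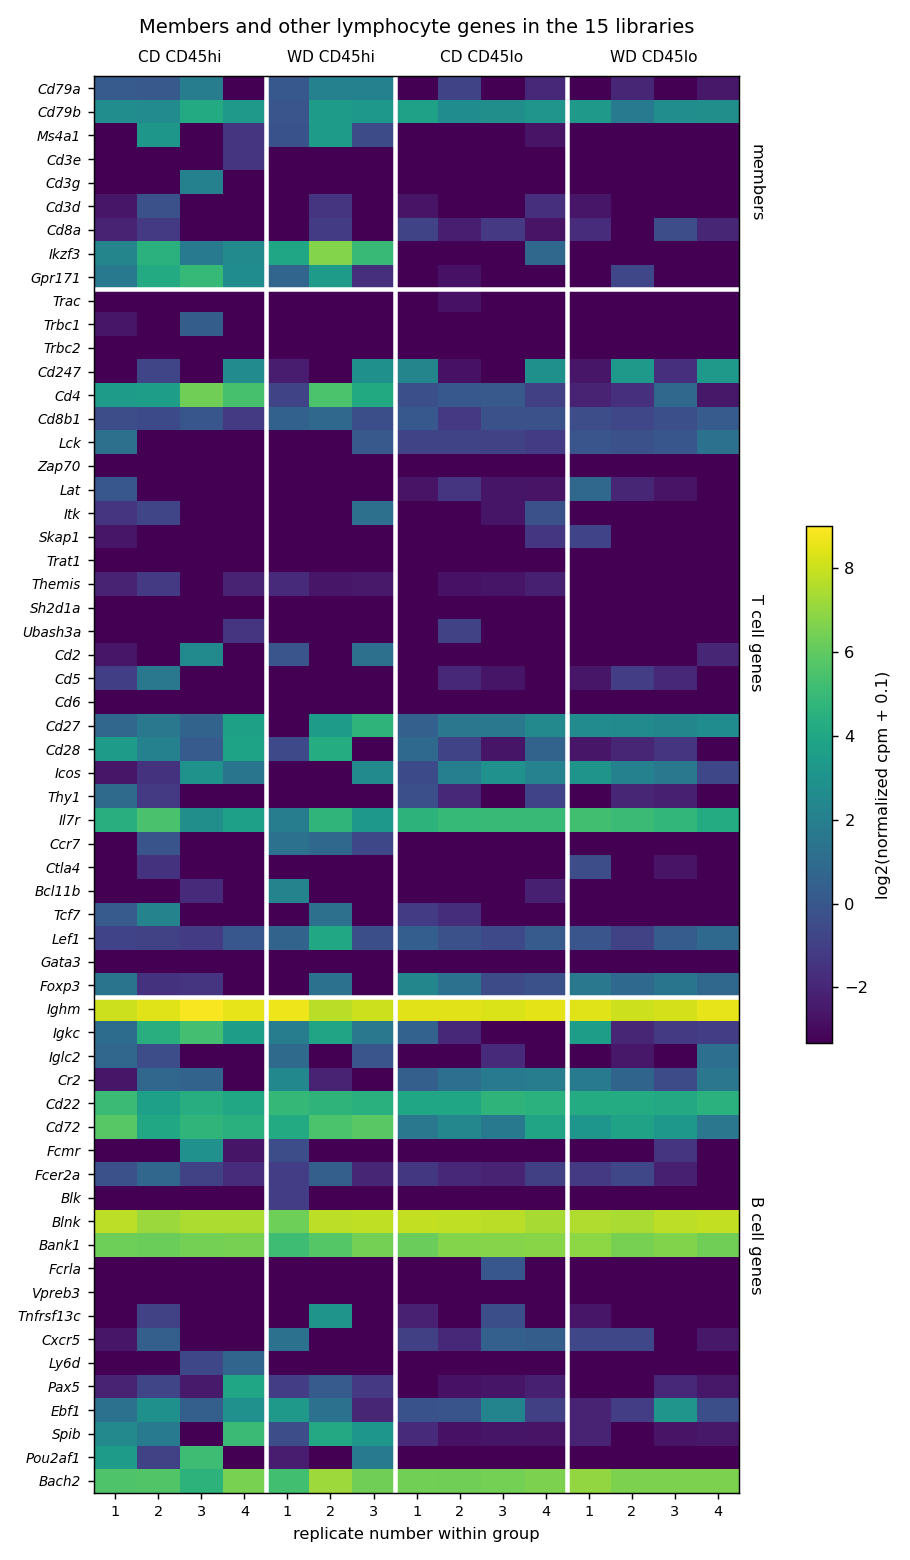
log2(normalized cpm + 0.1) of the 9 members and of the other T and B cell genes with a row (rows) in the 15 libraries (columns, grouped by diet and CD45 level). Of the 30 T cell genes 20, and of the 21 B cell genes 11, had at most 3 counts in at least 8 libraries and are dark there, and Ighm, Blnk, Bank1, Bach2 and Cd22 were above 12 cpm in every library.

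Ikzf3 (ENSMUSG00000018168, chromosome 11 of mm10 from 98464902 to 98546031, minus strand) had 4.85, 23.4, 3.43 and 5.79 cpm in the CD45hi libraries of CD-fed mice. In the WD-fed mice these were 15.3, 104 and 32.3 cpm, from 163, 1553 and 421 counts. In CD45lo cells it had 29 counts (1.65 cpm) in library 4 of CD-fed mice and 0 counts in the other 7 libraries. All CD45hi libraries were above all CD45lo libraries on both diets, and library 2 was the highest of each diet. The mean in CD45hi cells was 22.7 times that in CD45lo cells of CD-fed mice (9.36 ± 9.38 against 0.411 ± 0.823 cpm, SD, n = 4 for both), which was 11.4 without CD45hi library 2, and without CD45lo library 4 no counts were left in CD45lo cells of that diet. In WD-fed mice it was at least 223-fold higher in CD45hi cells (50.6 ± 47.2 cpm, SD, n = 3), against 3 counts per CD45lo library, and at least 105-fold without CD45hi library 2.

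The rest of the Ikaros family did not share this pattern, as the plot of the family shows. Ikzf1, Ikaros itself, which is known across the blood lineages, had means of 525 and 649 cpm in CD45hi and CD45lo cells of CD-fed mice and 579 and 590.1 cpm in those of WD-fed mice. Neither difference was called (log2 fold change -0.3, SE 0.151, and -0.03, SE 0.163; edgeR glmTreat FDR = 1 for both). In TPM, which also depends on the other genes of a library, Ikzf1 was at 121 to 198 in the CD45hi and at 216 to 292 in the CD45lo libraries, without overlap. Ikzf2 had group means of 25.9 to 44.3 cpm and Ikzf5 of 19.6 to 28 cpm, and neither was called. Ikzf4 had at most 19 counts in any library. Ikzf1 was 3.13 to 149.9 times as high as Ikzf3 in TPM in the 7 CD45hi libraries, and lowest relative to it in library 2 of WD-fed mice, where Ikzf3 reached 47 TPM.

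**Figure D4:**
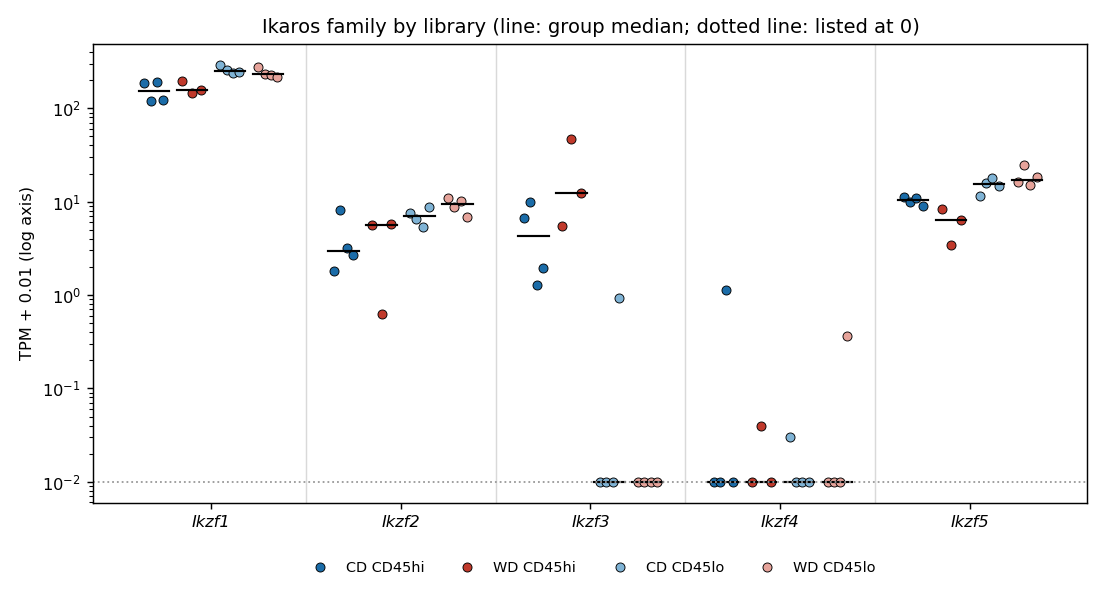
TPM + 0.01 (log axis) of the 5 Ikaros family genes in each library, with a line at each group median and a dotted line where a gene is listed at 0. Ikzf1, Ikzf2 and Ikzf5 are above 0 in all 15 libraries, whereas Ikzf3 is at 0 in 7 of 8 CD45lo libraries and between 1.28 and 47 TPM in the CD45hi libraries.

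Gpr171 (ENSMUSG00000050075, chromosome 3 of mm10 from 59096448 to 59101821, minus strand) lies in an intron of Med12l, which is read from the other strand. The CD45hi libraries of CD-fed mice had 3.08, 18.2, 30.4 and 6.18 cpm, and those of WD-fed mice had 1.5, 10.7 and 0.23 cpm. CD45lo cells had 1 count in library 2 of CD-fed mice, 7 counts (0.519 cpm) in library 2 of WD-fed mice, and 0 counts in the other 6 libraries. On the CD the cell types did not overlap, and Gpr171 was at least 78.4-fold higher in CD45hi cells (14.5 ± 12.4 cpm, SD, n = 4), or at least 49.7-fold without CD45hi library 3. On the WD they overlapped, since CD45hi library 3 had 3 counts, and the ratio of the means was 32 (4.16 ± 5.73 cpm, SD, n = 3, against 0.13 ± 0.26, SD, n = 4). The ratio on the WD was 6.67 without CD45hi library 2, and without CD45lo library 2 it became a bound of at least 18.3-fold.

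The genes next to Gpr171 encode purinergic receptors, and P2ry12 and P2ry13 ran the other way. P2ry12 and P2ry13, known as homeostatic receptors of microglia, start from the same strand within the same region, and P2ry14, a receptor for UDP-sugars, is the nearest at 12034 bases. P2ry12 fell in CD45hi cells, from 3833 to 1278 cpm on the CD (log2 fold change -1.58, SE 0.119, edgeR glmTreat FDR = 5.36e-06) and from 3422 to 1085 cpm on the WD (-1.66, SE 0.132, FDR = 8.81e-06). P2ry13 fell too, by 1.32 on the log2 scale on the CD (SE 0.145, FDR = 0.000675) and by 1.56 on the WD (SE 0.162, FDR = 0.00014). P2ry14 was at 4 ± 3.24 and 0.203 ± 0.139 cpm in CD45hi and CD45lo cells on the CD (SD, n = 4 for both) and at 1.29 and 0.556 cpm on the WD, and did not pass on either (edgeR glmTreat FDR = 0.144 and 0.797). On the CD 1 of 24 alternative fits, the edgeR 4 form, called P2ry14 higher in CD45hi cells (FDR = 0.0399). Med12l was not called on either diet, at 59.2 and 83.3 cpm on the CD and 43.9 and 90.3 cpm on the WD.

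**Figure D5:**
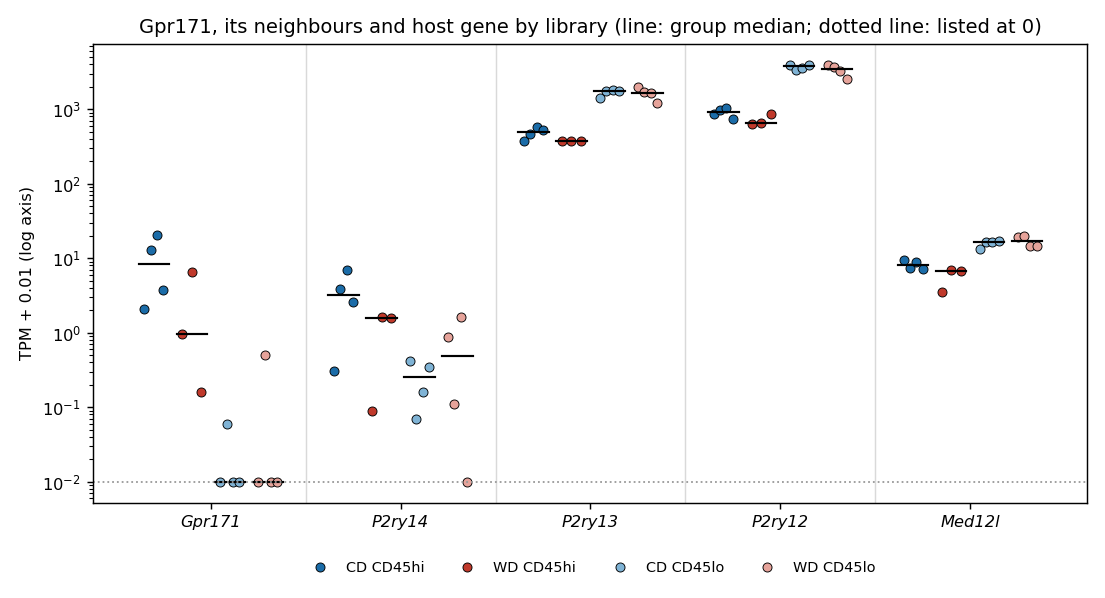
TPM + 0.01 (log axis) of Gpr171, its neighbours P2ry14, P2ry13 and P2ry12 in their order along the chromosome, and Med12l, in whose intron Gpr171 lies, in each library, with a line at each group median. P2ry12 and P2ry13 are lower in every CD45hi library than in every CD45lo library, whereas Gpr171 is listed at 0 in 6 of 8 CD45lo libraries.

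None of the 3 B cell members was called between CD45hi and CD45lo cells on either diet in this fit, beside the 3.98% and 5.18% of all genes given above. Some alternative fits did call 2 of them on the WD. Cd79a was called without CD45hi library 4 of CD-fed mice (edgeR FDR = 0.0493) and without both libraries that stood apart (0.0357). Ms4a1 was called with a replicate block by title (0.0494) and without CD45hi library 1 or 3 of CD-fed mice (0.0463 and 0.0459). Cd79a and Ms4a1 passed the filter only through CD45hi libraries (4 and 2 libraries at 1 cpm or more), and Ikzf3 and Gpr171 were chosen for being higher there, so the direction of these 4 genes was set by the choice and nothing is read from counts over the members. The CD45hi libraries lay above the CD45lo libraries without overlap for Ikzf3 and Gpr171 on the CD, where 8.26% of all tested genes did so, and for Cd79a, Ms4a1 and Ikzf3 on the WD, where 10% did.

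The diet comparison asks whether lymphocyte genes differed between WD- and CD-fed mice within a cell type. None of the 3 B cell members was called in CD45hi cells, where 0.254% of all tested genes were called (edgeR glmQLFTest, FDR under 0.05). Cd79a was 1.41 cpm on the CD and 3.13 cpm on the WD (log2 fold change 1.15, SE 1.55, edgeR FDR = 0.75). Without CD45hi library 3 of CD-fed mice the ratio of its means, 2.22, was 4.59. Ms4a1 was 2.34 and 4.17 cpm (0.83, SE 1.83, FDR = 0.862), and without WD library 2 its WD mean, 0.682 cpm, was the lower. Cd79b was 10.2 and 7 cpm (-0.53, SE 0.732, FDR = 0.756), and its log2 fold change was -0.03 (SE 0.638) without the libraries that stood apart. Each standard error was larger than the difference, so differences of this size were not detectable for these genes with 4 and 3 libraries.

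Ikzf3 and Gpr171 differed between the diets in opposite directions, by values only. The CD45hi mean of Ikzf3 was 5.41 times as high on the WD, from 3.43 to 23.4 cpm on the CD and from 15.3 to 104 cpm on the WD, and the libraries overlapped, where 5.77% of all tested genes did not overlap between the diets. The mean of Gpr171 was 3.46-fold lower on the WD, from 3.08 to 30.4 cpm on the CD and from 0.23 to 10.7 cpm on the WD, also with overlap. WD CD45hi library 2 was the highest of that diet for both genes. Without it the ratio of WD to CD means was 2.54 for Ikzf3 and went from 0.288 to 0.0598 for Gpr171. Without CD-fed library 2 the ratio of Ikzf3 was 10.8, and without CD-fed library 3 that of Gpr171 was 0.453.

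In CD45lo cells 0 of 14967 genes were called between the diets by edgeR glmQLFTest (0%), with 123 genes at an unadjusted p under 0.05, and DESeq2 called 4. Cd79b, the only member with counts in every CD45lo library, was 8.7 cpm on the CD and 6.52 cpm on the WD (log2 fold change -0.41, SE 0.671, edgeR FDR = 1). For Cd79a, Ms4a1 and Gpr171 no fold is given there, since both diets were at or near the floor. The interaction, which asks whether the difference between CD45hi and CD45lo cells depended on the diet, was called for 0.00668% of all genes and for none of the 3 B cell members (edgeR glmQLFTest FDR = 0.751 for Cd79a, 0.993 for Cd79b and 0.823 for Ms4a1). No gene of the T and B cell lists was called for diet in either cell type or for the interaction in this fit. In CD45hi cells Lef1, a transcription factor of T cells, was called higher on the WD by DESeq2 (FDR = 0.0218) and the edgeR 4 form (0.0291), and Bach2 (edgeR FDR = 0.0323) and Cd27 (0.0371) were called higher without both libraries that stood apart.

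Among the CD45hi libraries of WD-fed mice all 5 members past the filter were highest in library 2, with Cd79a at 4.23 cpm there and 4.22 cpm in library 3, and library 2 also held the only counts of Cd3d (4) and Cd8a (5) in that group. On the CD the highest library differed between members: it was library 2 for Ms4a1 and Ikzf3 and library 3 for Gpr171, Cd79a and Cd79b, and Cd79a was at 0 in library 4 of CD-fed mice, where Cd79b was at 9.72 cpm. Over the 7 CD45hi libraries, centred within each diet, Pearson's r of log2 cpm was 0.93 for Ms4a1 and Ikzf3, 0.51 for Cd79a and Cd79b and 0 for Cd79a and Ms4a1. These are descriptions over 7 libraries of the same CD45hi gate, which differed in depth (11951412 to 17752587 counts). Such libraries were uneven for many genes: 2538 of the 14967 tested genes (17.0%) had 0 counts in 1 CD45hi library and at least 50 in another, among them Cd79a and Ms4a1, while 344 genes (2.3%) and no member did so over the 8 CD45lo libraries.

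The genes whose levels followed the mean log2 cpm of Cd79a, Cd79b and Ms4a1 most closely were Yipf3, Wdr11, 0610010F05Rik, C230081A13Rik and Trmt6, with Pearson's r of 0.97 to 0.98 over the same 7 libraries and 13143 genes ranked. As many as 108 genes had an r above 0.9. By Spearman's rho 2 of these 5 were again among the nearest 5, and without WD CD45hi library 1 none was.

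Summed markers of other blood cells moved with CD45hi in the same direction as Cd79a, Ms4a1, Ikzf3 and Gpr171. Summed over 6 dendritic cell genes, the level was 121 to 298 cpm in CD45hi and 19.2 to 38.4 cpm in CD45lo libraries. Cd209a, called on both diets, was the largest part of the CD45hi sum (mean 148 cpm), and the genes did not all follow it. Ccr9 had the lower mean in CD45hi cells (0.824 against 1.69 cpm). Xcr1 overlapped on the CD (4.06 to 13.5 against 4.77 to 5.5 cpm), and Zbtb46 and Clec9a were each at 0 in 1 CD45hi library. For 5 monocyte genes it was 515 to 1020 against 45.1 to 152 cpm, and for 6 neutrophil genes 648 to 2651 against 41.9 to 233 cpm. Not all of these genes followed their sum. The monocyte gene Chil3 overlapped on the CD (6.86 to 312 against 45.6 to 109 cpm), and the neutrophil gene Ly6g was at 0 in 3 of the 7 CD45hi libraries. Genes of NK and cytotoxic cells, 15 in all, summed to 34.9 to 230.3 cpm in CD45hi and 0.918 to 6.53 cpm in CD45lo libraries, with Nkg7 called on both diets (on the CD not under the edgeR 4 form, FDR = 0.0551). Nkg7 passed the filter only through CD45hi libraries (7 at 1 cpm or more, against at most 0.104 cpm in CD45lo cells). Its direction was thus set by the filter, and its call is a description. The part of these cells in the levels of the 9 genes was not tested. The 6 microglial markers ran the other way (6 called lower on the CD and 3 on the WD), at 4940 to 6080 cpm in CD45hi and 10342 to 13502 cpm in CD45lo libraries. The sums of 5 red cell genes overlapped (13 to 131 against 9 to 128 cpm). Sums of 6 genes of other brain cells overlapped on the CD (2.24 to 5.98 against 2.64 to 6.23 cpm). On the WD they did not, at 10.1 to 16.5 cpm in CD45hi and 2.23 to 5.33 cpm in CD45lo libraries. The WD CD45hi sums were also above all CD45hi sums of CD-fed mice, and a cause was not tested.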

How the data were processed

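RNA was measured in 15 libraries of sorted brain cells, whose titles give the diet and the CD45 level. The authors removed adapters and low-quality bases and quantified genes with RSEM 1.2.12 on the mouse build mm10, and deposited expected counts, which are estimated counts that need not be whole, and TPM for each gene and library. The annotation release, the strand setting and the sequencing platform of each library are not given in the sources used here, so values of genes with a partner on the other strand are uncertain. GENCODE M21, of the same build, gave the coordinates.

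Expected counts were rounded, 14967 of 38924 genes reached 1 cpm in 2 or more libraries and were kept, and TMM normalization was applied. All 15 libraries entered 1 edgeR 4.0.16 quasi-likelihood fit with 4 groups (R 4.3.3), after the design of the study's methods. CD45hi and CD45lo cells were compared with glmTreat at a 1.5-fold limit, diets and the interaction with glmQLFTest, and Benjamini-Hochberg FDR under 0.05 was called. The SE was taken as the absolute log2 fold change over the root of the F statistic. A fold against a group at or under 3 counts in every library is the group mean over the highest 3-count level of a library of that group.

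The members, the lists of other genes and the tests were chosen with earlier results of these data known. The names given are the 9 members, their neighbours and families, called genes and genes near 0 of each list, and the 5 genes most like the B cell members. Some genes of the lists are not reported here and were left out of the list counts. The ranking by likeness could not be done for the CD3 genes, since 0 of 3 passed the filter. Cd28, Lck, Cd8b1, Trbc1, Cd2, Cd27, Lef1, Cd72, Igkc, Pou2af1, Blk, Ighm, Blnk, Cd22, Bank1 and Bach2 were named after their values were seen. The same holds for Il7r, Icos, Foxp3, Cd247, Chil3 and Ly6g. Replicate pairs of a group differed by more than sampling noise (chi-square per degree of freedom 20.6 to 135 over 21 pairs). The fit was tested on simulated counts of 14469 genes with 200 changed 8-fold in WD CD45hi libraries. It recovered 97.5% of them between cell types on the WD, with 6 false calls, and 98.5% between diets, with 2. The simulation set a minimum of 20 cpm. The CD45hi means of Cd79a, Cd79b, Ms4a1 and Gpr171 were under it (2.15, 8.8, 3.12 and 10 cpm). Its recovery therefore does not tell how well changes of these genes are detected.

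Alternatives were DESeq2 1.42.0, size factors of DESeq2 in edgeR, no filter and a stricter filter, the edgeR 4 form of the test, only the groups compared, replicate blocks, leaving out each library, and leaving out both CD45hi libraries that stood apart.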

Additional observations from a re-analysis of the deposited data

Results flagged for a closer look

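Within a group of 4 libraries, 10 values of the members stood far from the other 3 (a gap to the nearest library that takes up nearly all of the group's range, by Dixon's test), of 21 groups of 4 with any counts. Chance alone flags about 1 in 20 groups, and in groups where the other libraries are at 0 any count is flagged. In CD45hi cells of CD-fed mice library 2 was the highest for Ms4a1 (9.11 cpm, 110 counts), Ikzf3 (23.4 cpm, 282 counts) and Cd3d (0.745 cpm, 9 counts). In the same group library 3 was set apart for Cd3g (4.13 cpm, 47 counts) and library 4 for Cd3e (0.257 cpm, 4 counts).

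In CD45lo cells of CD-fed mice, library 4 was set apart for Ikzf3 (1.65 cpm, 29 counts) and Ms4a1 (0.0567 cpm, 1 count), and library 2 for Gpr171 (0.0519 cpm, 1 count). In CD45lo cells of WD-fed mice, library 2 was set apart for Gpr171 (0.519 cpm, 7 counts) and library 1 for Cd3d (0.0656 cpm, 1 count). The flags on 1 count are within the 3 counts that a value of 0 allows. CD45hi cells of WD-fed mice, with 3 libraries, were not examined.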

How the results depend on the processing

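In CD-fed mice CD45hi and CD45lo cells differed in 595 genes, and in 412 to 705 with a library left out. In WD-fed mice they differed in 775 genes, in 513 to 920 with a library left out and in 353 with a replicate block by file name. Between diets in CD45hi cells 38 genes were called, with 0 in the fit of only the groups compared (843 genes at an unadjusted p under 0.05), 2 with a replicate block by title, 66 with 1 cpm in at least 3 libraries, 252 with the edgeR 4 form, 290 without both libraries that stood apart, 1030 by DESeq2 and 1 to 286 with a library left out. In CD45lo cells 0 were called, and 4 by DESeq2. For the interaction 1 gene was called, with 0 by the edgeR 4 form and by the replicate blocks by title and by file name (1429, 1000 and 586 genes at an unadjusted p under 0.05), 3 without both libraries that stood apart, 188 by DESeq2 and 0 to 6 with a library left out.

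Members called between cell types were 1 on each diet. Both are genes chosen for this difference, so these counts are a description and no sign of stability. They were 2 on each diet with the replicate block by title, 2 by DESeq2 and 3 without both libraries that stood apart on the WD, and 1 to 2 on each diet with a library left out. The added calls were of Ikzf3 on the CD and of Gpr171, Cd79a and Ms4a1 on the WD. No alternative called a B cell member for diet or the interaction. The interaction of Cd79b, -0.12, turned to 0 with the replicate block by title, to 0.38 without both libraries that stood apart, and ran from -0.59 to 0.4 with a library left out. The cause of these shifts was not tested.

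Numbers in the titles and in the file names pair different libraries on the WD, and neither pairs them by the data (correlation of deviations -0.0217 to 0.0695). A block by file name could not be fitted for the diet comparisons. The replicate blocks also ended the call of Spib between cell types (edgeR FDR 0.0934 by title and 0.161 by file name on the CD, 0.0698 by file name on the WD) and that of Cd4 on the WD (0.105 by file name). Cd3e and Cd3g were at 0 in 14 of 15 libraries and Cd3d in 9, which allows up to 3 counts each.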
